A study of Mus musculus with 12 samples.

Results

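The 9 small nucleolar RNA (snoRNA) host genes described here were followed across BV2 cells, an established mouse microglial line: Snhg1, Snhg3, Snhg5, Snhg6, Snhg8, Snhg12, Snhg15, Gas5 and Zfas1. They were chosen by symbol and make up 9 of the 24934 gene rows of the deposited count table, and all 9 passed the filter on low counts. Acacetin cells were given 10 µM acacetin, a plant flavone. OGD cells were deprived of oxygen and glucose and then re-oxygenated, which models ischaemic stroke in a dish. No treatment is given in the labels for the Control cells. The treatment label of the Acacetin group does not itself mention deprivation, but the series' design text describes acacetin given to cells of the deprivation model, and the group was read so. Each group had 4 libraries of one immortalised line, and the labels do not say whether these came from separate cultures. If they did not, the p-values measure only technical spread.

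A snoRNA host gene carries snoRNAs in its introns. After splicing, the introns are trimmed to mature snoRNAs, which guide ribose methylation (box C/D type) or pseudouridylation (box H/ACA type) of ribosomal RNA, while the joined exons leave as a separate, polyadenylated RNA. Many of these spliced RNAs start with a run of pyrimidines, as do the messenger RNAs of ribosomal proteins, and several, Gas5 the best studied, are removed by nonsense-mediated decay when they are translated. Libraries made from polyadenylated RNA therefore read mainly the spliced host RNA, and a changed level can come from its making or its decay, which these counts cannot tell apart. Because the RNA came from whole cultures, fewer cells of a kind and less RNA per cell cannot be told apart either.

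Snhg3 (ENSMUSG00000085241.8, chromosome 4) hosts the U17 snoRNAs, which act in the cleavage of the ribosomal RNA precursor. Snhg15 (ENSMUSG00000085156.9, chromosome 11) is known in human cells as a short-lived RNA. Zfas1 (ENSMUSG00000074578.15, chromosome 2) runs antisense to the start of Znfx1 and hosts box C/D snoRNAs of the Snord12 family. Gas5 (ENSMUSG00000053332.14, chromosome 1) was found as a transcript that accumulates in growth-arrested cells. Snhg1 (ENSMUSG00000108414.2, chromosome 19) hosts Snord22 and others, Snhg5 (ENSMUSG00000097195.11, chromosome 9) hosts Snord50a and Snord50b, and Snhg6 (ENSMUSG00000098234.8, chromosome 1) hosts Snord87. Snhg8 (ENSMUSG00000104960.2, chromosome 3) hosts Snora24, and Snhg12 (ENSMUSG00000086290.10, chromosome 4) hosts Snora16a, Snora44, Snora61 and Snord99.

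The starts of the host genes are shown because many spliced host RNAs start with a pyrimidine run, as the messenger RNAs of ribosomal proteins do. The starts are those annotated by RefSeq, and the starts used in these cells were not examined. Promoter windows from RefSeq (GRCm38.p6, 250 bases before to 50 after the start) were matched for 8 of the 9 genes, with 2 starts for Gas5. The 60 bases around each start are printed below in the direction of transcription, and the start is base 31. Capitals mark the run searched, a C followed by at least 4 C or T. The lines give Snhg3 at chr4:132353657-132353716 (minus strand), Snhg15 at chr11:6528731-6528790 (minus), Zfas1 at chr2:167062904-167062963 (plus), Snhg8 at chr3:123508307-123508366 (minus), Snhg12 at chr4:132308648-132308707 (plus), Snhg5 at chr9:88522868-88522927 (minus) and the second start of Gas5 at chr1:161035136-161035195 (plus).
Snhg3: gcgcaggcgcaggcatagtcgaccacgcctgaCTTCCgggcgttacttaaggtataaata
Snhg15: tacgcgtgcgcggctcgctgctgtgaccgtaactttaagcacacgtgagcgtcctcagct
Zfas1: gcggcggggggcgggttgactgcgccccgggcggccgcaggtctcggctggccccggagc
Snhg8: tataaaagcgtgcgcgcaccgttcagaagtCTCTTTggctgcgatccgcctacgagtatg
Snhg12: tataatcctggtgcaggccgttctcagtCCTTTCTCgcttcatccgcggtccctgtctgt
Snhg5: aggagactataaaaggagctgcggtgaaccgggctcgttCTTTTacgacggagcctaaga
Gas5, start 2: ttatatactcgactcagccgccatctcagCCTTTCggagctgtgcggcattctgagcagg

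Read from the RefSeq start base itself, a C followed by at least 4 C or T was found in Snhg8, where the run begins at that base, and at the second start of Gas5, where it begins 1 base upstream. These were 2 of the 8 genes, and 2.51% of all 32851 promoter windows held such a start. Within 20 bases of the start it occurred in 5 of the 8 (Snhg3, Snhg5, Snhg8, Snhg12 and Gas5) and in 48.2% of all windows. Snhg1, Snhg15, Zfas1 and the first start of Gas5, not printed above, had none within 20 bases. Gas5 was counted if either of its 2 starts held a match, while the shares of all windows are over single starts. The whole 300-base windows were also searched on both strands for TGACGTCA, the palindromic cyclic AMP response element. It was found in Snhg15 (first base at position -88, with the start as position 1) and upstream of the second start of Gas5 (position -46), and in 1.79% of all windows. The 40 bases around each match are given with the element in capitals, for Snhg15 at chr11:6528825-6528864 (minus strand) and for Gas5 at chr1:161035104-161035143 (plus strand).
Snhg15: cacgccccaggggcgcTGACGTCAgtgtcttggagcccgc
Gas5, start 2: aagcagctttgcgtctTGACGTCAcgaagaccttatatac
The E-box CACGTG was found in Snhg15 alone, at position 12, and in 7.15% of all windows. The core ACGTG, which the E-box contains, was found in 3 of the 8 genes and in 19.6% of all windows. TATAAA was found in Snhg1 (position -29, on the minus strand), Snhg5 (position -23) and Snhg8 (position -30), and in 13.6% of all windows. Snhg3 also held it, but at position 23, downstream of the start. A match here describes letters and not the binding of any factor.

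Library depth ran from 16427886 to 32693066 counted reads, and the 9 host genes together took 0.0339% to 0.0484% of them. The 18S ribosomal RNA row held 13.1% of the reads of OGD 2 and 21.3% of those of OGD 3, against 0.137% to 1.86% in the other 10 libraries. The dependence of expression on gene length was most uneven among the Acacetin libraries, with a slope (log2 on log2) of -0.197 in Acacetin 1 and 0.295 in Acacetin 3. The 14 myeloid markers summed to 3196 to 4969 CPM (counts per TMM-scaled library, put on a common total) in Acacetin, 3825 to 5486 in OGD and 4427 to 5192 in Control, with Lyz2 at 1227 CPM or more in each library. The homeostatic microglial marker P2ry12 did not pass 0.234 CPM, Tmem119 lay between 3.05 and 8.12 CPM and Cx3cr1 between 1.53 and 4.84 CPM, so these defining markers of brain microglia were low or near 0. Summed markers of neurons, astrocytes, oligodendrocytes, fibroblasts and endothelial cells each stayed at or below 2.32 CPM in all 12 libraries. In the results below, means carry the SD over n = 4 libraries and log2 fold changes carry their SE.

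Per length, Snhg6 was the most abundant host gene in each group. The authors' FPKM (fragments per length of gene and depth of library) averaged 54.3 ± 5.19 in Acacetin, 51 ± 8.46 in OGD and 78.8 ± 13.1 in Control for Snhg6. The range of levels in the family was wide: Snhg5, the lowest, averaged 2.23 ± 0.931, 2.05 ± 0.36 and 1.73 ± 0.548 FPKM in Acacetin, OGD and Control. Snhg8 averaged 36.5 ± 4.59 FPKM in Acacetin, 40.7 ± 4.06 in OGD and 46.6 ± 4.88 in Control. The order between these extremes differed between the groups. Snhg15 stood in place 4 of 9 in Acacetin (23.1 ± 4.72 FPKM) and in OGD (22.2 ± 2.55 FPKM), and in place 7 in Control (8.9 ± 0.994 FPKM). Snhg3 was in place 2 in Acacetin (37.9 ± 2.08 FPKM) and OGD (42 ± 3.66 FPKM) and in place 4 in Control (19.8 ± 1.16 FPKM). Zfas1 took place 5 in Acacetin (19.8 ± 0.314 FPKM) and OGD (20.3 ± 3.23 FPKM), and place 3 in Control (41 ± 8.38 FPKM). Gas5, Snhg1 and Snhg12 came in that order in each group, with Snhg15 between Snhg1 and Snhg12 in Control. Gas5 averaged 10.9 ± 2.18, 11.3 ± 1.4 and 14.9 ± 2.64 FPKM in Acacetin, OGD and Control, Snhg1 averaged 8.49 ± 2.02, 8.83 ± 1.47 and 9.67 ± 2.3 FPKM, and Snhg12 averaged 5.41 ± 0.873, 5.96 ± 1.04 and 5.85 ± 0.8 FPKM. Several neighbours in this order were not separated by their libraries. In Acacetin the ranges of Snhg3 and Snhg8, of Snhg15 and Zfas1, of Gas5 and Snhg1, and of Snhg1 and Snhg12 overlapped. In OGD the same pairs overlapped, and so did Snhg6 and Snhg3. In Control the ranges of Snhg8 and Zfas1, of Gas5 and Snhg1, and of Snhg1 and Snhg15 overlapped.

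**Figure D1:**
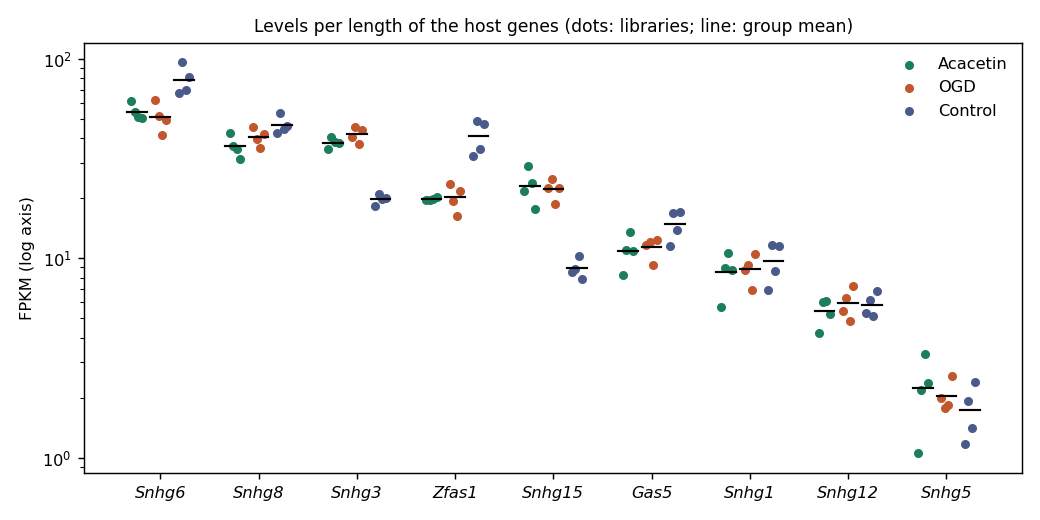
Deposited FPKM of the 9 host genes on a log axis, ordered by their mean over all 12 libraries, with Acacetin, OGD and Control side by side; dots are libraries and lines are group means. Snhg6 lies at the top of each group and Snhg5 at the bottom, while Snhg15 and Snhg3 lie higher, and Zfas1 lower, in Acacetin and OGD than in Control.

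OGD against Control asked which host genes changed with deprivation and re-oxygenation. Snhg15 and Snhg3 rose more than 2-fold, Zfas1 fell, and the other 6 were not called. By edgeR's quasi-likelihood test, 2 of the 9 were therefore called higher, beside 16.2% of all 13249 tested genes, and 1 was called lower, beside 12.6%. The share of the 9 called in either direction, 3 genes, stands beside 28.8% of all genes and is close to it.

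Snhg15 was read at 68.1, 100, 88 and 57.2 CPM in OGD 1 to 4, against 28.1, 28.2, 32.5 and 22.6 CPM in Control 1 to 4. The lowest OGD library lay above the highest Control library. Its means were 78.4 ± 19.4 CPM in OGD and 27.9 ± 4.06 CPM in Control, a 2.81-fold difference (log2 fold change 1.49 ± 0.22, edgeR adjusted p = 0.000318). Snhg3 had 45.7, 68.4, 65.3 and 41.6 CPM in OGD 1 to 4, against 22.2, 24.9, 23.4 and 21.2 CPM in Control 1 to 4. The Control libraries lay close together and all below OGD. Snhg3 rose 2.4-fold, with means of 55.2 ± 13.6 CPM in OGD and 22.9 ± 1.59 CPM in Control (log2 fold change 1.27 ± 0.17, edgeR adjusted p = 0.000249). The highest values of both genes came from OGD 2 and OGD 3, whose 18S ribosomal RNA share was high. Without those 2 libraries both stayed called, at a log2 fold change of 1.17 for Snhg15 (edgeR adjusted p = 0.00729) and 0.93 for Snhg3 (edgeR adjusted p = 0.00395). These were the lowest values of the 19 alternatives, under all of which both were called, and the highest were 1.62 for Snhg15 and 1.38 for Snhg3.

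Zfas1 moved the other way. It was read at 51.3, 56, 54.4 and 39.7 CPM in OGD 1 to 4, against 76.2, 112, 80.1 and 97 CPM in Control 1 to 4. All 4 OGD libraries lay below the lowest Control library. The means were 50.3 ± 7.36 CPM in OGD and 91.3 ± 16.5 CPM in Control, a ratio of 0.551 (log2 fold change -0.86 ± 0.17, edgeR adjusted p = 0.00173), and the call held under the 19 alternatives (log2 fold changes of -1.0 to -0.75).

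Snhg6 had 80.9, 89.6, 83.7 and 54 CPM in OGD 1 to 4, against 95.6, 132, 95.6 and 101 CPM in Control 1 to 4. The groups did not overlap, but the difference missed the threshold (log2 fold change -0.46 ± 0.20, edgeR adjusted p = 0.107). It was called lower with limma on log2(FPKM + 1) (adjusted p = 0.00932), after removal of the trend with gene length (edgeR adjusted p = 0.0259) and with the 8 libraries of the comparison alone (edgeR adjusted p = 0.0354). Groups without overlap were seen in 4 of the 9 genes, Snhg15 and Snhg3 higher and Zfas1 and Snhg6 lower, and in 36.0% of all tested genes (19.0% higher and 17.0% lower).

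The 5 remaining host genes overlapped between the groups. Gas5 had 49.8, 68.8, 61.6 and 44.5 CPM in OGD 1 to 4, against 53.8, 76.6, 62.2 and 69.1 CPM in Control 1 to 4 (log2 fold change -0.22 ± 0.15, edgeR adjusted p = 0.308). Snhg5 averaged 9.72 ± 1.52 CPM in OGD and 7.28 ± 1.93 CPM in Control, and its estimate of 0.41 ± 0.25 was not called. Snhg12 averaged 18.8 ± 3.73 CPM in OGD and 16.5 ± 1.52 CPM in Control. The values of Snhg1 were 34.3 ± 5.85 CPM in OGD and 33.6 ± 7.09 CPM in Control, and those of Snhg8 were 45.9 ± 8.74 and 46.8 ± 5.58 CPM. The log2 fold changes of Snhg1 (0.03 ± 0.17) and Snhg8 (-0.03 ± 0.20) changed sign under some alternatives. Over the 9 genes the median log2 fold change was 0.03, and over all tested genes it was also 0.03.

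OGD 2 and OGD 3 held the 2 highest OGD values for all 9 host genes. TMM scaling raised these libraries relative to their read totals, since its factors were 0.807 for OGD 2 and 0.78 for OGD 3, against 0.996 for OGD 1 and 1.24 for OGD 4. Of all counted reads, rRNA included, the 9 genes took 0.0391%, 0.0411%, 0.0371% and 0.0403% in OGD 1 to 4, a spread with no such split. Those reads include the 18S row, which held 0.248%, 13.1%, 21.3% and 0.277% of the reads of OGD 1 to 4. The rRNA reads therefore lower this share most in OGD 2 and OGD 3. Beyond the values given without OGD 2 and OGD 3, the part of rRNA in the CPM values was not tested.

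**Figure D2:**
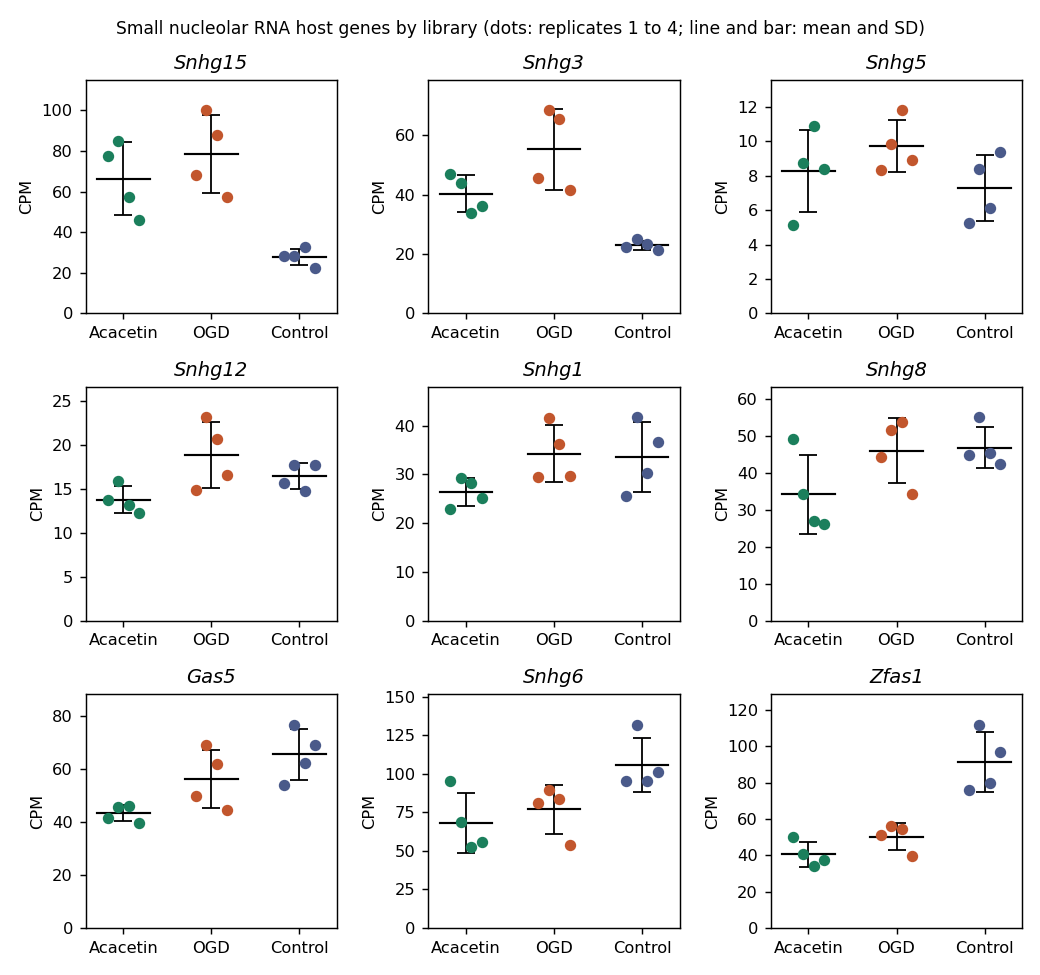
CPM of each host gene by library, with Acacetin, OGD and Control from left to right; dots are replicates 1 to 4 and the line and bar are the mean and SD, on axes that start at 0. Snhg15 and Snhg3 lie above Control in all Acacetin and OGD libraries, and Zfas1 lies below Control in all of them.

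Ratios of reads between 2 host genes within a library do not depend on how the library is scaled. The first 2 pairs below set Snhg3 and Snhg15, called higher than Control, over Zfas1, called lower. The CPM of these genes already lay apart from Control without overlap in Acacetin and OGD. Ratios without overlap therefore follow from those values and are no further test. The ratio of Snhg3 to Zfas1 reads was 0.941, 1.07, 0.998 and 0.967 in Acacetin 1 to 4 and 0.89, 1.22, 1.2 and 1.05 in OGD 1 to 4, against 0.292, 0.223, 0.292 and 0.219 in Control 1 to 4. In each Acacetin and OGD library the ratio was near 1, and no Control library passed 0.292. The ratio of Snhg15 to Zfas1 reads behaved alike, with 1.56, 2.07, 1.68 and 1.23 in Acacetin and 1.33, 1.8, 1.62 and 1.44 in OGD, against 0.369, 0.252, 0.406 and 0.233 in Control. Within the rising pair, the ratio of Snhg15 to Snhg3 was 1.65, 1.93, 1.69 and 1.27 in Acacetin, 1.49, 1.47, 1.35 and 1.38 in OGD, and 1.26, 1.13, 1.39 and 1.07 in Control, so the groups overlapped. The ratio of Snhg6 to Zfas1 was 1.5 to 1.91 in Acacetin, 1.36 to 1.6 in OGD and 1.04 to 1.25 in Control.

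**Figure D3:**
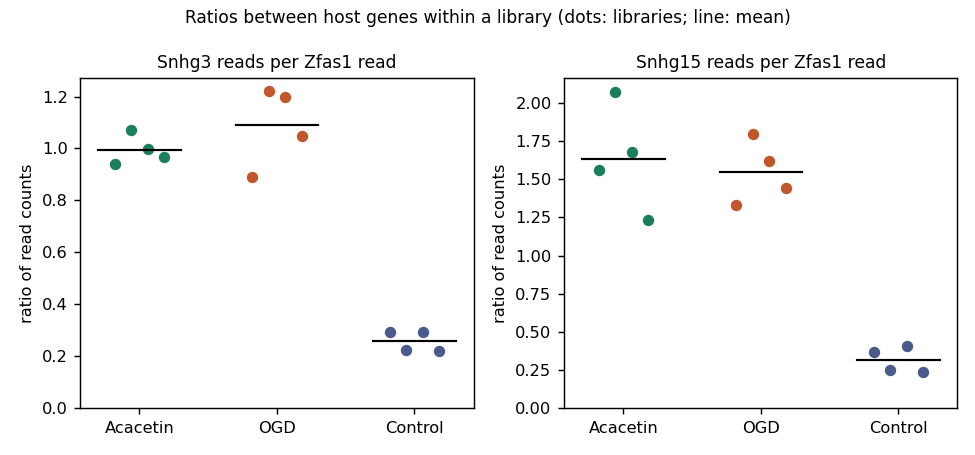
Ratios of read counts within a library, Snhg3 to Zfas1 on the left and Snhg15 to Zfas1 on the right; dots are libraries, lines are group means and the axes start at 0. All Acacetin and OGD libraries lie above all Control libraries in both panels, which follows from the CPM of these genes, already without overlap with Control.

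Acacetin against OGD asked whether acacetin altered the host genes in the deprivation model. None of the 9 was called by edgeR, and none of the 13249 tested genes was (0%), although 685 genes (5.17%) had an unadjusted p under 0.05 and DESeq2 called 37 genes, none of them a host gene. All 9 host genes had a negative log2 fold change, with a median of -0.37, while over all genes the median was -0.02 and 52.5% were negative. All 9 were also negative with DESeq2, with its size factors in edgeR, with either other filter on low counts, with the length trend removed, with the 8 libraries alone, without Acacetin 1 and 3 and without any single library. The common sign was lost on the FPKM scale and without OGD 2 and OGD 3. With limma on log2(FPKM + 1), 3 of the 9 were positive and their median was -0.06, where the median of all genes lay at 0.15. Without OGD 2 and OGD 3, 3 of the 9 were also positive and the median was -0.08, where that of all genes was 0.08.

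Snhg3 had 47, 43.9, 33.8 and 36.2 CPM in Acacetin 1 to 4, against the OGD values of 41.6 to 68.4 CPM given above (log2 fold change -0.46 ± 0.17, edgeR adjusted p = 0.829). Snhg1 was the only host gene without overlap, with 22.9, 29.2, 28.2 and 25.2 CPM in Acacetin 1 to 4, against 29.4, 41.6, 36.3 and 29.7 CPM in OGD 1 to 4. The gap between the groups was small, 29.2 CPM in the highest Acacetin library and 29.4 CPM in the lowest OGD library, and the log2 fold change was -0.37 ± 0.17 (edgeR adjusted p = 0.829). In FPKM the ranges of Snhg1 overlapped, 5.72 to 10.58 in Acacetin and 6.93 to 10.47 in OGD. By CPM, 1 host gene of 9 without overlap stands beside 2.35% of all tested genes (0.468% higher and 1.88% lower). Unadjusted p-values were under 0.05 for 5 of the 9 (Snhg3, Snhg12, Snhg8, Gas5 and Snhg1), beside 5.17% of all tested genes. All 9 had their 2 highest OGD values in OGD 2 and OGD 3. Without these libraries their median log2 fold change moved from -0.37 to -0.08. Snhg12 averaged 13.8 ± 1.56 CPM in Acacetin and 18.8 ± 3.73 CPM in OGD, and Snhg8 averaged 34.1 ± 10.5 and 45.9 ± 8.74 CPM. Gas5 averaged 43.2 ± 3.01 CPM in Acacetin and 56.2 ± 11 CPM in OGD. Snhg15, Snhg5, Snhg6 and Zfas1 had estimates between -0.31 and -0.18.

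Acacetin against Control, which shares libraries with both comparisons above, gave 2 host genes higher and 3 lower. The 5 of 9 called stand beside 26.9% of all tested genes, the 2 higher beside 14.0% and the 3 lower beside 12.9%. Snhg15 had 77.7, 84.8, 57.1 and 45.9 CPM in Acacetin 1 to 4, all above the highest Control value of 32.5 CPM, and was 2.38-fold higher (log2 fold change 1.25 ± 0.21, edgeR adjusted p = 0.00117). Snhg3 was 1.75-fold higher, at 40.2 ± 6.25 CPM in Acacetin and 22.9 ± 1.59 CPM in Control (0.81 ± 0.17, edgeR adjusted p = 0.00408). Zfas1 had 50, 40.9, 33.9 and 37.4 CPM in Acacetin 1 to 4, all below the lowest Control value of 76.2 CPM. Its ratio was 0.444 (log2 fold change -1.17 ± 0.17, edgeR adjusted p = 0.000498). These 3 calls held under the 19 alternatives.

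Gas5 and Snhg6 were also called lower in Acacetin, less firmly. Gas5 had 41.6, 45.6, 45.8 and 39.7 CPM in Acacetin 1 to 4, against 53.8 to 76.6 CPM in Control, and the groups did not overlap (log2 fold change -0.60 ± 0.15, edgeR adjusted p = 0.011). With limma on log2(FPKM + 1) its adjusted p was 0.154. Snhg6 had 95.2, 68.5, 52.6 and 56.1 CPM in Acacetin 1 to 4, against 95.6 to 132 CPM in Control (-0.64 ± 0.20, edgeR adjusted p = 0.0325). The groups did not overlap, but Acacetin 1, the library with the most negative length slope, lay just below the lowest Control library. The call of Snhg6 was lost without Acacetin 2, 3 or 4 or without Control 2 (edgeR adjusted p = 0.0719, 0.0769, 0.0909 and 0.112). It was also lost with limma on log2(FPKM + 0.1). Snhg8 averaged 34.1 ± 10.5 CPM in Acacetin and 46.8 ± 5.58 CPM in Control and was not called (edgeR adjusted p = 0.102), and without Acacetin 1, whose value of 49 CPM was the highest of its group, it was called lower (-0.68, edgeR adjusted p = 0.00518). Snhg1, Snhg12 and Snhg5 had log2 fold changes of -0.35 ± 0.17, -0.26 ± 0.16 and 0.19 ± 0.25, none called. Groups without overlap were seen in 5 of the 9 genes, beside 25.7% of all tested genes (12.1% higher and 13.5% lower).

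**Figure D4:**
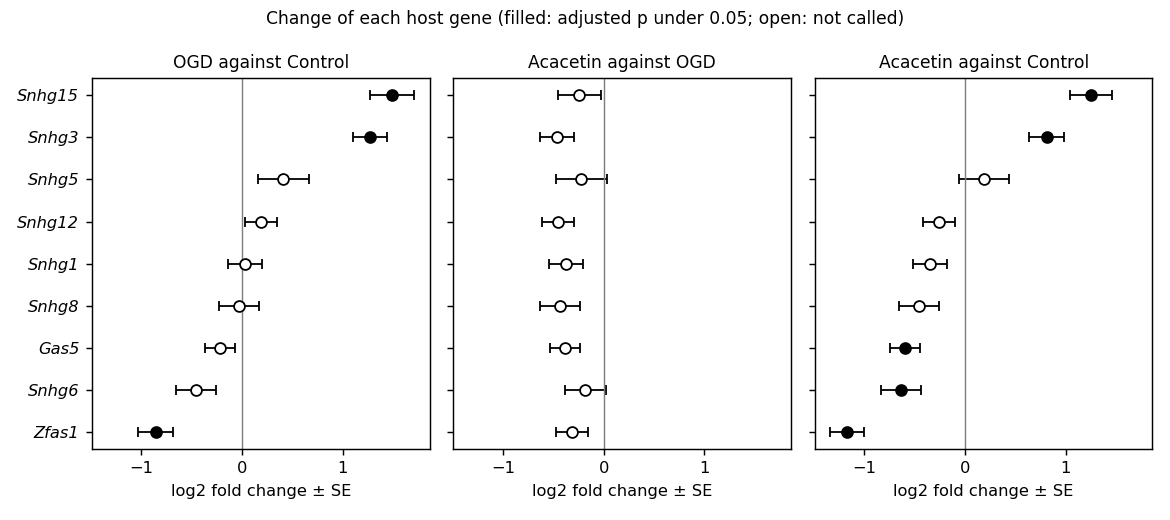
Log2 fold change with its SE for each host gene in the 3 comparisons, which share libraries; filled points passed an adjusted p of 0.05 in edgeR and open points did not. Snhg15 and Snhg3 lie to the right of 0 and Zfas1 to the left in both comparisons with Control, and all points of Acacetin against OGD are open and left of 0.

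The mature snoRNAs are short RNAs with no poly(A) tail, and few reads were assigned to them. GENCODE M21 (GRCm38) places 33 genes that it types as snoRNA inside the 9 host genes, from 10 in Gas5 (among them Mir5117, which carries a microRNA symbol) and 8 in Snhg1 to 1 each in Snhg6, Snhg8 and Snhg15, and 4 of the 33 had a row in the count table. Of these 4, only Snora73b (ENSMUSG00000065353.3, chromosome 4), a U17 snoRNA inside Snhg3, was read often enough to be tested, with 821 reads in all. Snord87 in Snhg6 had 23 reads over the 12 libraries, Gm23201 in Zfas1 had 40 and Snora73a, the second U17 copy in Snhg3, had 7. The sequences of both copies from GENCODE M21 (GRCm38) are shown because reads can be divided between them only where they differ. Capitals mark the ACA box, 3 bases from the end. Snora73a lies at chr4:132352775-132352979 and Snora73b at chr4:132352322-132352526, both on the minus strand.
Snora73a: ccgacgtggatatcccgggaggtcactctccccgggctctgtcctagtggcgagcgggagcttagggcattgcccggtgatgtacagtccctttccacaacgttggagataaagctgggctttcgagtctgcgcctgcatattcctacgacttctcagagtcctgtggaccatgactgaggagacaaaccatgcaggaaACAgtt
Snora73b: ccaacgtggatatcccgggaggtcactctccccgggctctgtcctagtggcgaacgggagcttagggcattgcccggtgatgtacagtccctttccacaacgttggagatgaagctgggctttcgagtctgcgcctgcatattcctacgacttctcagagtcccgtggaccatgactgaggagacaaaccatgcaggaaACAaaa
Each copy is 205 bases long, and they differ at 7 positions when laid side by side without gaps. In that annotation 2 of the 33, Snora73b and Snord87, lie outside the exon models of their host. The others, Snora73a among them, overlap such a model. How the authors' counter treated reads shared by 2 genes was not given in the sources used here. A missing row therefore does not show that a snoRNA was not read.

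Snora73b was read 68, 152, 177 and 78 times in OGD 1 to 4, against 14, 29, 17 and 18 times in Control 1 to 4. At 2.15, 7.59, 13.8 and 2.53 CPM, the OGD libraries lay above all Control libraries, which ran from 0.573 to 1.2 CPM. OGD 2 and OGD 3 were far above the other OGD libraries. The 18S ribosomal RNA row held 13.1% and 21.3% of the reads of these 2 libraries, and its relation to Snora73b was not tested. The log2 fold change was 3.08 ± 0.54 (edgeR adjusted p = 0.001), and without OGD 2 and OGD 3 it was 1.63 ± 0.34 (edgeR adjusted p = 0.0118). In Acacetin 1 to 4 it was read 55, 85, 72 and 56 times, at 1.81 to 2.61 CPM, and was called higher than in Control (1.54 ± 0.52, edgeR adjusted p = 0.043) but not different from OGD (-1.54 ± 0.50, edgeR adjusted p = 0.797).

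Genes that overlap or face the host genes were looked up in the same annotation. Rcc1, whose product loads nucleotide onto Ran, overlaps Snhg3 on the same strand, so the division of reads between them is uncertain. It averaged 106 ± 19.5 CPM in Acacetin, 123 ± 12.3 CPM in OGD and 60.9 ± 6.16 CPM in Control, and rose beside Snhg3 in OGD (1.02 ± 0.15, edgeR adjusted p = 0.000294). Gm17300, on the other strand of Snhg3, averaged 3.43 ± 2.3 CPM in OGD and 1.11 ± 0.438 CPM in Control (1.61 ± 0.46, edgeR adjusted p = 0.0185), and the strand setting of the counter is not known.

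The genes that start within 1000 bases on the opposite strand were not called in OGD against Control. Znfx1, an antiviral helicase gene, starts 81 bases from Zfas1 and averaged 9.6 ± 2.18 CPM in OGD and 7.72 ± 0.663 CPM in Control (0.32 ± 0.19, edgeR adjusted p = 0.238), while Zfas1 fell. Slc3a2, the heavy chain of amino acid transporters, starts 106 bases from Snhg1 and averaged 410 ± 48.8 CPM in OGD and 347 ± 32.8 CPM in Control (0.24 ± 0.18, edgeR adjusted p = 0.345). Zbtb37, 427 bases from Gas5, averaged 0.429 ± 0.196 CPM in OGD and 0.389 ± 0.131 CPM in Control (0.21 ± 0.72, edgeR adjusted p = 0.862). Mcmdc2, which overlaps Snhg6 on the other strand, stayed at or below 0.246 CPM.

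For the 3 host genes called in OGD against Control, the genes with the most alike profile were taken by the root mean square difference of log2 CPM over the 12 libraries, after centring each gene. Among 11420 genes, Snhg15 was nearest to Selenos, a selenoprotein of the endoplasmic reticulum, at 0.11, and to Tmem97, a sterol-linked membrane protein, also at 0.11, where the median gene lay at 0.81. Selenos averaged 48.2, 59.2 and 21.3 CPM in Acacetin, OGD and Control. Snhg3 was nearest to Myom1, a sarcomere protein gene, at 0.11, and Ppa1, an inorganic pyrophosphatase gene, at 0.12, where the median gene lay at 0.68. Zfas1 was nearest to Stoml1, of the stomatin family, at 0.13, and Eci2, an enoyl-CoA isomerase gene, at 0.14, where the median gene lay at 0.66. Eci2 averaged 21, 23.1 and 43.4 CPM in Acacetin, OGD and Control. The 12 libraries share depth and the differences named above, so likeness here is a description of these profiles.

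Other non-coding snoRNA hosts, given as a separate list, held more rises than falls in OGD. Of 9 tested rows, 5 were called higher, 0 lower and 4 not, with a median log2 fold change of 0.66, beside 16.2% of all tested genes called higher, 12.6% lower and a median of 0.03. Among the 1039 long non-coding RNA genes tested, 17.7% were called higher and 11.0% lower. Without OGD 2 and OGD 3, 2 of the 9 rows were called higher, and the median was 0.62. Fewer genes in all were then called, 8.18% higher and 6.35% lower, and the median of all genes was 0.05. Dancr, a host gene also called a differentiation antagonist, averaged 4.13 ± 1.13 CPM in OGD and 1.55 ± 0.301 CPM in Control (1.40 ± 0.25, edgeR adjusted p = 0.00116). The called row of Snhg4 (ENSMUSG00000117869.2) averaged 16.4 ± 3.55 CPM in OGD and 7.86 ± 1.24 CPM in Control (1.06 ± 0.19, edgeR adjusted p = 0.00129), and a second row with this symbol was not called.

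Host genes that also encode proteins were called in both directions. Of 27, 5 were called higher, 2 lower and 20 not, with a median of -0.06, beside 16.2% of all tested genes called higher and 12.6% lower. The lists are not separate, since Nop56, Dkc1, Eef2 and ribosomal protein genes such as Rpl3 also stand in lists below. Nop56, a core protein of box C/D particles whose introns also carry snoRNAs, averaged 389 ± 62.3 CPM in OGD and 215 ± 34 CPM in Control (0.85 ± 0.15, edgeR adjusted p = 0.001). Eif4a2, a translation helicase, fell to 18.2 ± 2.57 CPM in OGD, against 46.2 ± 14.3 CPM in Control (-1.34 ± 0.29, edgeR adjusted p = 0.00389). Eef2, the ribosome translocase, averaged 3017 ± 347 CPM in OGD and 4691 ± 477 CPM in Control (-0.64 ± 0.21, edgeR adjusted p = 0.0386), and Nap1l4, a histone chaperone, was called higher (0.54 ± 0.13, edgeR adjusted p = 0.00626). Without OGD 2 and OGD 3, 1 of the 27 was called higher and 0 lower, beside 8.18% and 6.35% of all genes, and the median was -0.28.

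The proteins that assemble snoRNA particles included 7 of 20 called higher and 0 lower in OGD, with a median of 0.48, beside 16.2% of all genes called higher. Without OGD 2 and OGD 3, 1 was called higher, beside 8.18% of all genes, and the median was 0.39. Beside Nop56, the box H/ACA protein gene Gar1 averaged 92.3 ± 9.46 CPM in OGD and 59 ± 6.41 CPM in Control (0.64 ± 0.15, edgeR adjusted p = 0.00679). In nonsense-mediated decay and the exon junction complex, 6 of 21 genes were called higher and 0 lower, with a median of 0.34. Over all genes, 16.2% were called higher and 12.6% lower. Of the 21, 3 were called higher without OGD 2 and OGD 3, beside 8.18% of all genes, and the median was then 0.37. Smg5, a decay factor that acts with the phosphorylated helicase, averaged 88.9 ± 6.4 CPM in OGD and 38 ± 3.62 CPM in Control (1.22 ± 0.14, edgeR adjusted p = 0.000109). Upf1, that helicase, averaged 60.7 ± 9.27 CPM in OGD and 34 ± 2.91 CPM in Control (0.84 ± 0.14, edgeR adjusted p = 0.000674).

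Ribosomal protein genes are a class whose messenger RNAs start with a pyrimidine run. By edgeR they gave 0 calls among 79 tested in OGD against Control, beside 16.2% of all genes called higher and 12.6% lower. Their median was -0.30. At an unadjusted p under 0.05, 0 were higher and 6 lower. DESeq2 called 0 higher and 7 lower, beside 2277 and 2126 of all 13249 genes. After removal of the trend with gene length 1 was called higher and 18 lower, beside 2324 and 2098 of all 13249. Without OGD 2 and OGD 3 edgeR called 0 of the 79, beside 8.18% of all genes higher and 6.35% lower. The median was then -0.50. Of 20 other translation genes of this class, 1 was called higher (Eif3l, 0.41 ± 0.14, edgeR adjusted p = 0.0345) and 2 lower (Eif3f, -0.66 ± 0.19, edgeR adjusted p = 0.0202, and Eef2, given above), with a median of -0.16. These calls also stand beside 16.2% of all genes called higher and 12.6% lower. None of the 20 was called by edgeR without OGD 2 and OGD 3, and the median was then -0.28. In Acacetin against OGD none of the 6 lists had a called gene by edgeR or DESeq2, although 2 of the other non-coding hosts were lower, and 1 snoRNA particle protein and 1 decay factor higher, at an unadjusted p under 0.05, and their medians ran from -0.26 in the other non-coding hosts to -0.03 in the other translation genes. The medians of 5 of the 6 lists were positive without OGD 2 and OGD 3, from 0.06 in the decay factors to 0.15 in the snoRNA particle proteins and the ribosomal proteins, and that of the other non-coding hosts was -0.02, where the median of all genes was 0.08. In Acacetin against Control the lists gave 3 higher and 1 lower among the other non-coding hosts, 4 and 2 among the protein-coding hosts, 9 and 0 among the snoRNA particle proteins, 4 and 0 among the decay factors, 1 and 2 among the other translation genes, and 0 and 0 among the ribosomal proteins, beside 14.0% of all genes called higher and 12.9% lower. The decay factors had 8 higher with DESeq2, beside 2341 of all 13249 genes, and 7 with the length trend removed, beside 2189. Without Acacetin 1 and Acacetin 3 the protein-coding hosts had 6 higher and 7 lower, and the other non-coding hosts 1 and 1. The other translation genes then had 3 and 4, and the decay factors 6 and 0. Of all 13729 genes tested without these 2 libraries, 2053 were called higher and 1917 lower. Among the 79 ribosomal proteins, 12 were lower at an unadjusted p under 0.05. DESeq2 called 11 ribosomal protein genes lower, beside 2065 of all 13249 genes. Without Acacetin 1 and Acacetin 3, 28 were called lower, beside the 1917 of 13729.

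**Figure D5:**
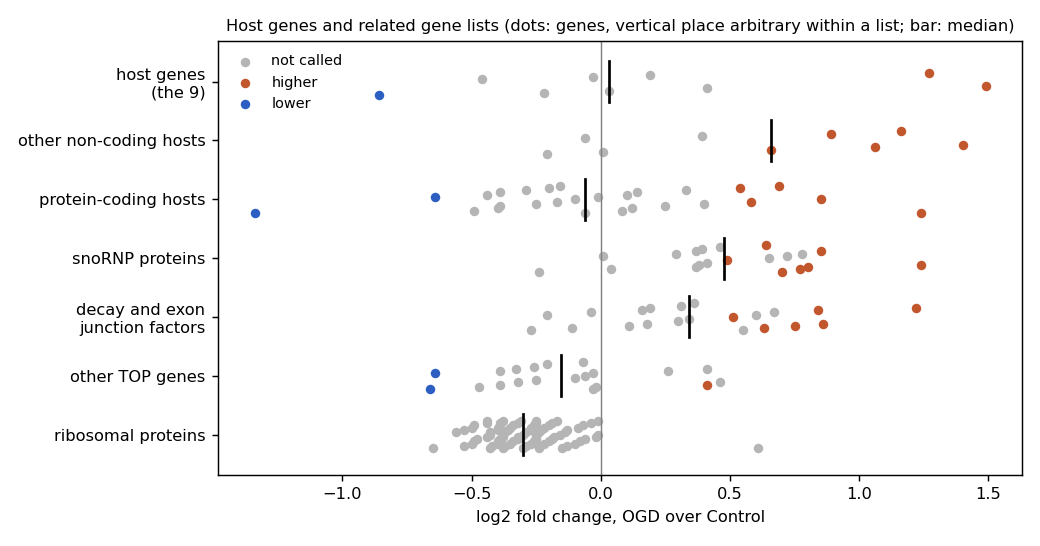
Log2 fold change of OGD over Control for the 9 host genes and the 6 related lists; each dot is a gene, coloured by its edgeR call, and the black line is the median of the list. The other non-coding hosts have a median of 0.66, the snoRNA particle proteins 0.48 and the ribosomal proteins -0.30, while the 9 host genes spread on both sides of their median of 0.03.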

How the data were processed

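The 12 libraries of BV2 RNA were sequenced in pairs on a NovaSeq after a stranded mRNA preparation, per the labels' protocols. GRCm39, HISAT2, bcl2fastq and DESeq2 are named in the submitters' processing notes. The read counter, annotation release and strand setting are not given in the sources used here. Raw read counts per gene, made by the authors, fill the deposited count table, and their deposited FPKM table scales these by gene length and depth. All columns matched a library by name (0 unmatched).

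The test was that of edgeR 4.0.16 (R 4.3.3). After filterByExpr (minimum count 10, minimum total 15), 13249 genes entered one quasi-likelihood fit of all 12 libraries with TMM scaling. Each two-sided p was adjusted by Benjamini-Hochberg over all tested genes of a comparison, and genes with an adjusted p under 0.05 are named as called. CPM use TMM-scaled library sizes. Intervals and SEs do not treat reads as independent molecules. The procedure was tested on simulated data with known fold changes.

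Alternatives were DESeq2 1.42.0, its size factors in edgeR, no filter, a mean of at least 1 CPM, the replicate number as a block, limma 3.58.1 on log2(FPKM + 1) and log2(FPKM + 0.1), removal of a lowess trend with gene length, the 8 libraries compared alone, leaving out OGD 2 and 3 or Acacetin 1 and 3, and leaving out each library. FPKM fold changes are on the log2(FPKM + pseudocount) scale after a filter at a mean of 0.1, and understate changes of low genes.

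The host genes and lists were chosen with earlier results of these data known. All 9 host genes are named, with hosted snoRNAs of at least 10 reads in a library, the 2 called genes with the smallest p per list and direction in OGD against Control, facing genes within 1000 bases, and the 2 genes most alike in profile to each called host gene. The other overlapping genes, and the snoRNAs with fewer reads, were named after their values were seen. Names of neighbours and hosted snoRNAs and all sequences come from GENCODE M21 (GRCm38) and RefSeq (GRCm38.p6), not from the build of the counts.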

Additional observations from a re-analysis of the deposited data

Results flagged for a closer look

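Snhg6 in Control 2 was read at 132 CPM, against 95.6, 95.6 and 101 CPM in Control 1, 3 and 4. The value stood apart from the rest of its group by Dixon's criterion at the 95% level. It was 1 of 27 sets of 4 libraries examined (9 genes in 3 groups), where chance alone gives about 1 in 20. Without Control 2, Snhg6 was no longer called lower in Acacetin against Control (log2 fold change -0.52, edgeR adjusted p = 0.112).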

How the results depend on the processing

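Of 522 values of the 9 host genes recomputed under alternatives, 477 kept direction and side of the threshold, 8 lost and 10 gained a call and 27 changed sign; none of the 27 was called in the analysis reported. In OGD against Control, Snhg1 was -0.01 with DESeq2 and with its size factors, -0.11 with limma on FPKM (each version), -0.03 with the length trend removed and -0.18 without OGD 2 and 3, and ran from -0.09 to 0.15 when single libraries were left out. Snhg8 was 0.08 with the length trend removed and ran from -0.12 to 0.09 without single libraries, and Snhg12 was -0.05 without OGD 2 and 3. In Acacetin against OGD, Snhg5 was 0.04, 0.03 and 0.04, Snhg6 0.10 and Snhg15 0.04 with limma on FPKM (1 added, 0.1 added, unfiltered), and without OGD 2 and 3 they were 0.01, 0.05 and 0.12. The causes were not tested.

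Host genes called lower in OGD against Control numbered 2, with Snhg6 added, under the replicate block, limma on FPKM (each version), length removal and the 8 libraries alone. In Acacetin against Control they numbered 5 under the replicate block and 1 with limma on log2(FPKM + 0.1), of 3 called in all, and 2 to 4 without single libraries, with 4 to 6 called in all. Leaving out single libraries left 3 called in OGD against Control.

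Over all genes, calls in OGD against Control numbered 2010 without OGD 2 and 3, where fewer samples entered, and 2798 to 3501 without single libraries. Acacetin against OGD gave 37 with DESeq2, 8 unfiltered, 2 under the replicate block, 1 with limma on log2(FPKM + 0.1), 4 with the length trend removed, 1 with the 8 libraries alone, 4 without Acacetin 1 and 3, and 0 to 9 without single libraries (9 without Acacetin 1). Acacetin against Control gave 2147 with limma on log2(FPKM + 0.1), 2089 unfiltered on FPKM, and 2373 to 5818 without single libraries (5818 without Acacetin 1; 2373 without Control 2). The share of higher calls in OGD against Control was 56.3%, and 32.8% with limma on log2(FPKM + 1). Same-numbered libraries did not deviate together throughout (correlations of -0.291 to 0.506). For replicate 4 the same-numbered correlation was above those with other numbers in each comparison (0.506, 0.38 and 0.402). For replicate 3 it was below the highest of them in each (0.0708, -0.118 and -0.291). These values do not settle whether libraries of a number share a culture or batch. In Acacetin against Control the replicate block added Snhg1 (edgeR adjusted p = 0.0499) and Snhg8 (edgeR adjusted p = 0.0462) to the genes called lower. Depth limits low rows such as Snora73b, with 14 to 29 reads per Control library.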
